A study of Mus musculus with 4 samples.

Results

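Counts of 10 activation-induced and NF-kB genes are described here in mouse T-helper 2 (Th2) cells, out of the 50600 genes counted. The members were chosen by name, as genes induced through the T cell receptor or belonging to the NF-kB system, and each of the 10 symbols matched 1 gene identifier in the GENCODE annotation. They are Nfkb1, Rel, Nfkbia, Tnfaip3, Nfatc1, Myc, Egr2, Nr4a1, Cd40lg and Cd69. The study holds 4 RNA-seq libraries of primary Th2 cells from mice of strain C57BL/6NJ, without a genetic change or added agent named in the labels, and all 4 form 1 group. The labels call them biological replicates 1 to 4 and give each its own biosample, but list the same donor entry for all and record sex as not collected and age as unknown. The labels name the assay total RNA-seq and link a library protocol for poly(A) RNA. The file headers place the cells at 72 h, after a sort, and the linked protocol is for differentiation of CD4 T cells. With 1 group and no resting or unstimulated sample, induction itself cannot be measured here, so genes were compared within a library and libraries with each other.

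Engagement of the T cell receptor switches on several branches of signalling. Through protein kinase C theta, BCL10 and MALT1 it activates the IkB kinase, which marks IkB alpha, the product of Nfkbia, for destruction and frees NF-kB dimers such as p50 (from Nfkb1) with c-Rel (from Rel) to enter the nucleus. Nfkbia and Tnfaip3, which encodes the ubiquitin-editing enzyme A20, are themselves NF-kB targets and close a negative feedback loop. Calcium entry activates calcineurin, which lets NFAT factors such as NFATc1 enter the nucleus, while Egr2 and Nr4a1 are early response genes and Myc drives growth. CD69 and CD40 ligand are surface proteins of activated T cells: CD69 holds cells in tissue by pulling S1PR1 off the surface, and CD40 ligand gives help to B cells and myeloid cells through CD40.

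The promoters of members that belong to the feedback loop are shown because these genes are known NF-kB targets, and that of Egr2 because serum response factor is known to act on early response genes. RefSeq promoter windows (build GRCm38.p6) were given for 5 of the 10 members, Egr2, Nr4a1, Rel, Nfkbia and Tnfaip3. The 250 bases before a start are printed 5′ to 3′ on the strand of the gene, with capitals marking matches to the κB letters GGGANNNNCC on either strand or to the CArG box, the serum response factor motif. For Egr2 1 of 5 windows is shown and for Tnfaip3 1 of 2. The Egr2 window shown lies within the bounds of the annotated gene, and the Tnfaip3 window almost wholly does. Their RefSeq starts are thus inside those bounds.
Rel, chr11:23770970-23771219, minus strand: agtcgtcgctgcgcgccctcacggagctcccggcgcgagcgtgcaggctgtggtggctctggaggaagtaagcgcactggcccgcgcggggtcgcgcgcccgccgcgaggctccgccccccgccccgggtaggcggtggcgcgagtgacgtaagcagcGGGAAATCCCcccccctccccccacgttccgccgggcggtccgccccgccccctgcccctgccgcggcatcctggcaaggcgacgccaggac
Nfkbia, chr12:55492648-55492897, minus strand: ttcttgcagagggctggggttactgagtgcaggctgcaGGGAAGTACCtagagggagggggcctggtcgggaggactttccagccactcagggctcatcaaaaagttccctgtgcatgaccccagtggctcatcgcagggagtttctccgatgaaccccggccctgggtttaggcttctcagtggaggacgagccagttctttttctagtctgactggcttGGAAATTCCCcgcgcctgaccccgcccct
Tnfaip3, chr10:19015411-19015660, minus strand: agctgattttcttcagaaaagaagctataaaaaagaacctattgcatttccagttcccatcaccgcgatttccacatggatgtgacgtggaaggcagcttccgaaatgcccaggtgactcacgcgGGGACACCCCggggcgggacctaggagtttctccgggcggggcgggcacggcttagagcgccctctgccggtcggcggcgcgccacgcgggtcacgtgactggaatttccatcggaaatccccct
Egr2, chr10:67537619-67537868, plus strand: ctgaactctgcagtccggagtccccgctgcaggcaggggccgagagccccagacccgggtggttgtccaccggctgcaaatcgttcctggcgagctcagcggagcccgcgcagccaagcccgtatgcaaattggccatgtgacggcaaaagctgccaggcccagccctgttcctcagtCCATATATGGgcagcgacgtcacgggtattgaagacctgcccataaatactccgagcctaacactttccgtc
In the Rel window the match GGGAAATCCC began 92 bases before the start and read as a match on both strands. The Nfkbia window held GGGAAGTACC 212 bases and GGAAATTCCC 29 bases before the start, the second of these a match on the opposite strand. The Tnfaip3 window held GGGACACCCC 125 bases before the start, and next to it, at 136 bases, the AP-1 letters TGACTCA, a match to TGANTCA. The Egr2 window held the CArG box CCATATATGG 72 bases before the start, and the Nr4a1 window held none of the 3 motifs. Another Egr2 window, chr10:67535249-67535498 at the 5′ end of the annotated gene, held the κB match GGGAGCTCCC and no CArG match. Among all 32851 windows, 17.6% held a κB match, 6.75% an AP-1 match and 1.47% a CArG match, so κB letters alone are common. The motifs were chosen after the windows had been read, and a match is a description of letters, not a bound site.

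The total gene count was 1274431 to 1857433 per library, and a count of 0 allows up to 3 counts, which is 1.62 to 2.35 counts per 1000000 (CPM). Counts were made on the annotated strand of each gene. Per kb, the mitochondrial gene mt-Nd6 had 38990 to 49626 counts and the other 12 mRNA genes of that genome, which lie on the opposite strand, at most 2853, so own-strand values are not taken as mRNA levels. Genes with no exon opposite an exon of another gene held 16.4%, 8.54%, 9.14% and 20.1% of the counts of replicates 1 to 4. All 10 members are such genes, and no gene of the other strand lies within the bounds of any of them, so no member has an opposite-strand partner to compare with. The members were therefore also expressed per 1000000 counts of genes with no opposite exon, called free-gene CPM here. Own-strand counts of cell type markers are given on the same footing, so they do not settle which cells were present. All 9 T cell markers had counts in every library, summing to 766, 315, 150 and 885 counts. The 5 CD8 and natural killer markers had 0 counts in all 4 libraries, the 5 granulocyte markers summed to 0 to 4 and the 6 B cell markers to 50, 56, 21 and 3 in replicates 1 to 4, with Ms4a1 and Pax5 at 0. Most of the B cell sum came from Cd79a, with 35, 41, 9 and 2 counts, and Cd22, which has an opposite exon, with 14, 15, 12 and 1. Both were lowest in replicate 4, where the members were highest in CPM, and their part in the results was not tested. The 6 myeloid markers summed to 542 to 838 counts, nearly all from Csf1r, which has an exon opposite another gene. Cd68, which has no opposite exon, had 16, 11, 33 and 0 counts in replicates 1 to 4. Lyz2, Itgam, Adgre1 and Cd14 were at 0. In bulk libraries, fewer cells of a type and less RNA per cell cannot be told apart.

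Every member had counts in all 4 libraries, against 24.5% of all protein-coding genes with no opposite exon. Of the 10 members, 5 (Nfkb1, Nfkbia, Tnfaip3, Myc and Nfatc1) had 1 TPM or more in every library. TPM is the count per kb of exon, scaled so that each library sums to 1000000. Of all 50600 genes 12.5% reached that level, and of protein-coding genes with no opposite exon 13.8%. With TPM scaled to genes with no opposite exon alone, every member had 3.09 or more in every library. The share of all genes at 1 or more on that scale was not counted. The median of the 10 members was 6.04, 2.14, 2.56 and 9.999 TPM in replicates 1 to 4, beside 2.07, 0.8003, 0.615 and 2.83 TPM for the 8339 protein-coding genes with no opposite exon and a count in any library. The members' median thus stood above that of this class in each library, as a description of named genes. Single members were below it: Cd69 and Nfatc1 in replicate 1, Cd40lg and Cd69 in replicate 2, and Egr2 and Nr4a1 in replicate 3. The sum over the members was 440, 215, 167 and 555 counts.

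The NF-kB subunits Nfkb1 and Rel were both counted, Nfkb1 with the most counts of the panel and Rel with fewer than Myc, Nfkbia or Tnfaip3. Nfkb1 (ENSMUSG00000028163.17, chr3:135584655-135691547, mm10, minus strand), which encodes p105 and its product p50, had 119, 55, 41 and 142 counts in replicates 1 to 4. Rel (ENSMUSG00000020275.9, chr11:23736847-23770970, minus strand), the gene of c-Rel, had 21, 10, 7 and 57 counts. Per length, Nfkb1 had 8.43, 3.46, 3.38 and 14.5 TPM and Rel 2.40, 1.02, 0.931 and 9.42 TPM. Both were highest in replicate 4, and the Rel value there lay well clear of its other 3. On the log2(TPM + 1) scale Rel was below Nfkb1 in 4 of 4 libraries, with a difference of -1.09 ± 0.37 (SD, n = 4). The exact permutation test of sign flips, two-sided, gave p = 0.125, the smallest that 4 libraries allow, and 0.175 after Benjamini-Hochberg adjustment over the 7 pairs tested. No pair could therefore pass 0.05.

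The share of the pair's counts that fell on Rel does not depend on how a library is scaled. Rel made up 15.0% (95% Wilson interval 10.03 to 21.8), 15.4% (8.58 to 26.1) and 14.6% (7.25 to 27.2) in replicates 1 to 3, and 28.6% (22.8 to 35.3) in replicate 4. The first 3 libraries had nearly the same share, while the interval of replicate 4 lay above that of replicate 1 and overlapped those of replicates 2 and 3. Intervals cover counting error only. The mean of Rel was 3.44 ± 4.04 TPM over 4 libraries and 1.45 TPM without replicate 4.

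Among the inhibitors, Nfkbia had the highest mean own-strand TPM of the panel and Tnfaip3 a value close to that of Nfkb1. Nfkbia (ENSMUSG00000021025.8, chr12:55489410-55492647, minus strand) had 77, 27, 25 and 85 counts, or 40.9, 12.7, 15.4 and 65.1 TPM. Tnfaip3 (ENSMUSG00000019850.11, chr10:19000910-19015657, minus strand) had 70, 47, 37 and 62 counts, or 8.28, 4.93, 5.08 and 10.6 TPM. Replicates 1 and 4 were the higher for both genes, with a much smaller range for Tnfaip3. On the log2(TPM + 1) scale, Nfkbia minus Nfkb1 was 1.94 ± 0.24 and Nfkbia minus Tnfaip3 was 1.83 ± 0.61, above 0 in 4 of 4 libraries (p = 0.125 each, exact sign-flip test). Tnfaip3 and Nfkb1 did not differ beyond their spread, with a difference of 0.11 ± 0.42, above 0 in 2 of 4 libraries (p = 0.75, exact sign-flip test).

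Nfkbia and Nfkb1, the inhibitor and the subunit, kept close to 1 ratio in the 4 libraries. Of the counts of the pair, in the order of replicates 1 to 4, Nfkbia took 39.3% (32.7 to 46.3), 32.9% (23.7 to 43.7), 37.9% (27.1 to 49.9) and 37.4% (31.4 to 43.9), and the 4 Wilson intervals share values. Tnfaip3 took 37.04% (30.5 to 44.1), 46.1% (36.7 to 55.7), 47.4% (36.7 to 58.4) and 30.4% (24.5 to 37.02) of its pair with Nfkb1 in replicates 1 to 4, lowest in replicate 4. Those 4 intervals also share values, over a narrow stretch. Nfkbia took 52.4% (44.3 to 60.3) and 57.8% (49.7 to 65.5) of its pair with Tnfaip3 in replicates 1 and 4, but 36.5% (26.4 to 47.9) and 40.3% (29.02 to 52.7) in replicates 2 and 3. There the intervals of replicates 2 and 4 do not meet. Rel against Tnfaip3, a pair chosen after its values were seen, stood at 47.9% (39.1 to 56.8) in replicate 4 and at 15.9% to 23.1% in the other 3.

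**Figure D1:**
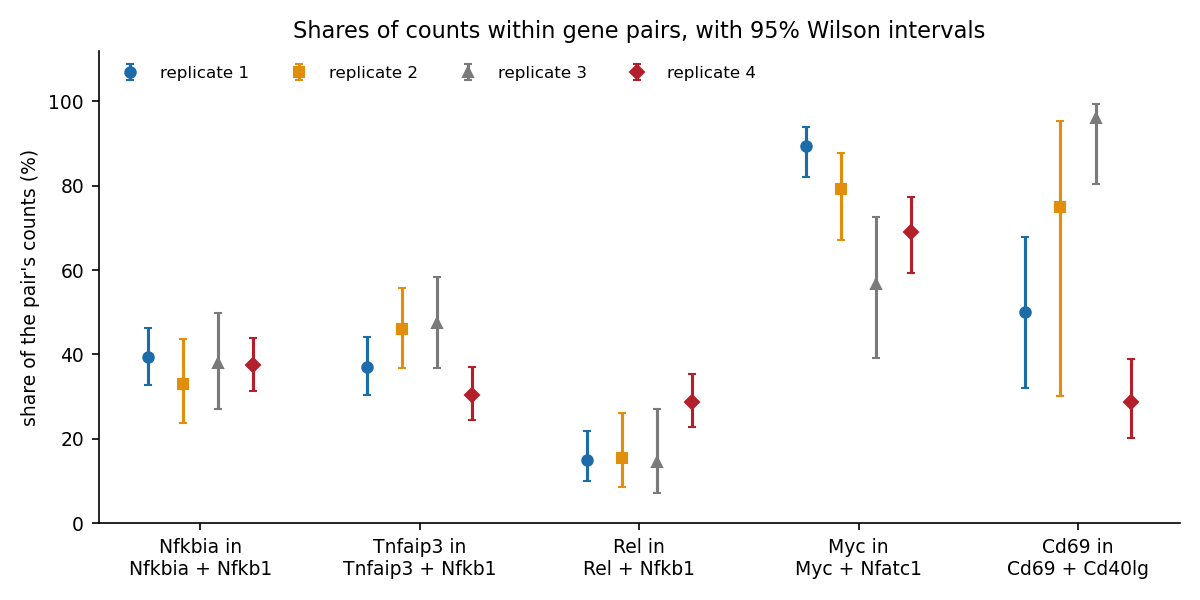
Share of the counts of a gene pair that fell on the gene named before the word in, as percent on the vertical axis, for 5 pairs on the horizontal axis. Points are the 4 Th2 libraries and bars 95% Wilson intervals: Nfkbia keeps 32.9% to 39.3% of its pair with Nfkb1, while Cd69 spans 28.7% to 96.0% of its pair with Cd40lg.

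Myc and Nfatc1, the gene of a factor that drives growth and that of a calcineurin-dependent factor, had their lowest counts in different libraries. Myc (ENSMUSG00000022346.15, chr15:61985391-61990374, plus strand) had 93, 46, 17 and 67 counts in replicates 1 to 4, or 29.2, 12.8, 6.21 and 30.4 TPM. Nfatc1 (ENSMUSG00000033016.15, chromosome 18, minus strand) had 11, 12, 13 and 30 counts, or 1.26, 1.22, 1.74 and 4.98 TPM. Replicate 3 was the lowest library for Myc, whereas Nfatc1 had similar counts in replicates 1 to 3 and was higher in replicate 4. Myc exceeded Nfatc1 by 2.54 ± 0.96 on the log2(TPM + 1) scale in 4 of 4 libraries (p = 0.125, exact sign-flip test). Its share of the pair's counts was 89.4% (82.05 to 93.99), 79.3% (67.2 to 87.7), 56.7% (39.2 to 72.6) and 69.1% (59.3 to 77.4) for replicates 1 to 4, so the interval of replicate 1 lies above those of replicates 3 and 4. The mean of Nfatc1 was 2.30 ± 1.80 TPM over 4 libraries and 1.41 TPM without replicate 4.

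The early response genes Egr2 and Nr4a1 had the fewest counts of the panel. Egr2 (ENSMUSG00000037868.15, chr10:67535475-67542188, plus strand), a zinc finger factor linked to T cell anergy and restraint, had 12, 4, 1 and 12 counts in replicates 1 to 4, or 3.02, 0.892, 0.292 and 4.36 TPM. Nr4a1 (ENSMUSG00000023034.6, chr15:101266846-101274792, plus strand), the gene of the nuclear receptor NUR77 that reports T cell receptor signal, had 11, 10, 1 and 13 counts, or 3.80, 3.06, 0.401 and 6.48 TPM. Both had 1 count in replicate 3, where the exact 95% Poisson interval of a single count is 0.0253 to 5.57. Egr2 was below Nr4a1 in 4 of 4 libraries, with a difference of -0.49 ± 0.44 on the log2(TPM + 1) scale (p = 0.125, exact sign-flip test) and of -0.29 without replicate 2. Their mean counts of 7.25 and 8.75 fell below the minimum of 10 set for the tests across genes, so neither was tested there. The mean of Egr2 was 2.14 ± 1.88 TPM over 4 libraries and 1.401 TPM without replicate 4.

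Of the surface genes, Cd40lg had the widest range between libraries of the panel, and Cd69 followed another order of libraries. Cd40lg (ENSMUSG00000031132.1, chrX:57212143-57224042, plus strand) had 13, 1, 1 and 62 counts in replicates 1 to 4, or 8.89, 0.606, 0.794 and 61.2 TPM. Cd69 (ENSMUSG00000030156.5, chr6:129267325-129275436, minus strand) had 13, 3, 24 and 25 counts, or 1.71, 0.349, 3.66 and 4.74 TPM. Cd40lg was nearly confined to replicates 1 and 4 among these 4 libraries, while Cd69 was low in replicate 2 and about as high in replicate 3 as in replicate 4 by count. Cd69 took 50.0% (32.1 to 67.9), 75.0% (30.1 to 95.4), 96.0% (80.5 to 99.3) and 28.7% (20.3 to 38.98) of the pair's counts, and the interval of replicate 3 lies clear above those of replicates 1 and 4. The log2(TPM + 1) difference, Cd69 minus Cd40lg, was -1.05 ± 2.07, negative in 3 of 4 libraries (p = 0.375, exact sign-flip test), and it was -0.25 without replicate 4 and -1.85 without replicate 3. The mean of Cd40lg was 17.9 ± 29.1 TPM over 4 libraries and 3.43 TPM without replicate 4, so 1 library sets that level.

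**Figure D2:**
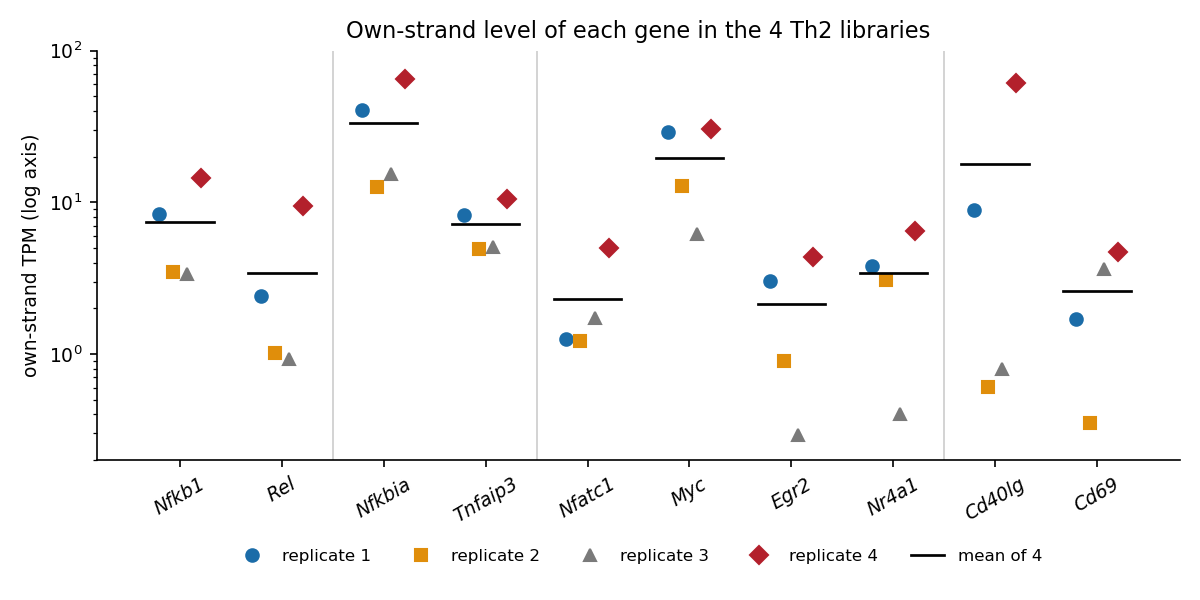
Own-strand TPM of the 10 genes on a log axis in each of the 4 Th2 libraries, ordered by role as NF-kB subunits, inhibitors, other transcription factors and surface genes, with a bar at the mean of the 4. Nfkbia spans 12.7 to 65.1 TPM and Cd40lg 0.606 to 61.2 TPM, and the symbol of replicate 4 is the highest for each gene.

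By mean TPM the order was Nfkbia, Myc, Cd40lg, Nfkb1, Tnfaip3, Rel, Nr4a1, Cd69, Nfatc1 and Egr2. The means were 33.5 ± 24.6 TPM for Nfkbia and 19.7 ± 12.04 TPM for Myc, then 7.45 ± 5.28 for Nfkb1, 7.22 ± 2.72 for Tnfaip3, 3.44 ± 2.50 for Nr4a1 and 2.61 ± 1.96 for Cd69. Between neighbours in this order, the log2(TPM + 1) difference had the same sign in 4 of 4 libraries for Tnfaip3 against Rel alone, at 1.20 ± 0.71 (p = 0.125, exact sign-flip test). In the other 8 neighbouring pairs the sign was mixed, with exact p from 0.25 to 1.0 (0.75 or more after adjustment over the 9 pairs). The order was taken from these same values, which partly sets the signs, so these p-values decide nothing about the order. Nfkbia stood above 96.8% of the 8339 protein-coding genes with no opposite exon and a count, Nfkb1 above 82.7% and Egr2 above 54.5%.

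Replicate 4 had the highest CPM of each of the 10 members, and the lowest fell in replicate 3 for 5, in replicate 2 for 4 and in replicate 1 for 1. Across the 7752 genes that averaged 10 counts or more, 43.3% were highest in replicate 4, against 23.4%, 14.4% and 18.9% for replicates 1, 2 and 3. These genes include ones with an opposite exon, unlike the members, and exclude Egr2 and Nr4a1, which averaged fewer than 10 counts. The CPM share among genes with no opposite exon alone was not counted. Replicate 4 also had the largest share of counts in genes with no opposite exon (20.1%) and the highest T cell marker sum. The part of these in the members' order was not tested. In free-gene CPM, 6 of the 10 members were highest in replicate 4, beside 38.7% of the 3827 such genes with no opposite exon. Egr2 was among the 6 but, like Nr4a1, had too few counts to be among those 3827 genes. Myc was then highest in replicate 1 (25.3% of those genes), Nr4a1 and Tnfaip3 in replicate 2 (14.5%) and Cd69 in replicate 3 (21.5%).

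The change of denominator brought some members close together across libraries and left others apart. Tnfaip3 had 239, 296, 280.1 and 242 free-gene CPM in replicates 1 to 4, a ratio of highest to lowest of 1.24, against 1.92 in CPM. Nfkb1 had 407, 347, 310.3 and 553 free-gene CPM (ratio 1.78, against 3.93 in CPM). Nfkbia had 263, 170.2, 189 and 331 (ratio 1.95, against 4.59).

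By contrast, Rel kept a high value in replicate 4, with 71.8, 63.04, 52.98 and 222 free-gene CPM (ratio 4.19, against 9.24 in CPM). Cd40lg had 44.5, 6.30, 7.57 and 242 free-gene CPM, so its ratio was still 38.3, against 90.4 in CPM. Cd69 had 44.5, 18.9, 182 and 97.4 free-gene CPM, and its highest library was no longer replicate 4 but replicate 3. The exact Poisson intervals of Cd69 there were 116 to 270.3 in replicate 3 and 63.04 to 144 in replicate 4, which overlap. Over the 8 members that averaged 10 counts or more, the median ratio was 2.79 in free-gene CPM and 4.53 in CPM, beside 3.36 and 5.10 for the 3471 genes with no opposite exon, that mean count and no 0.

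**Figure D3:**
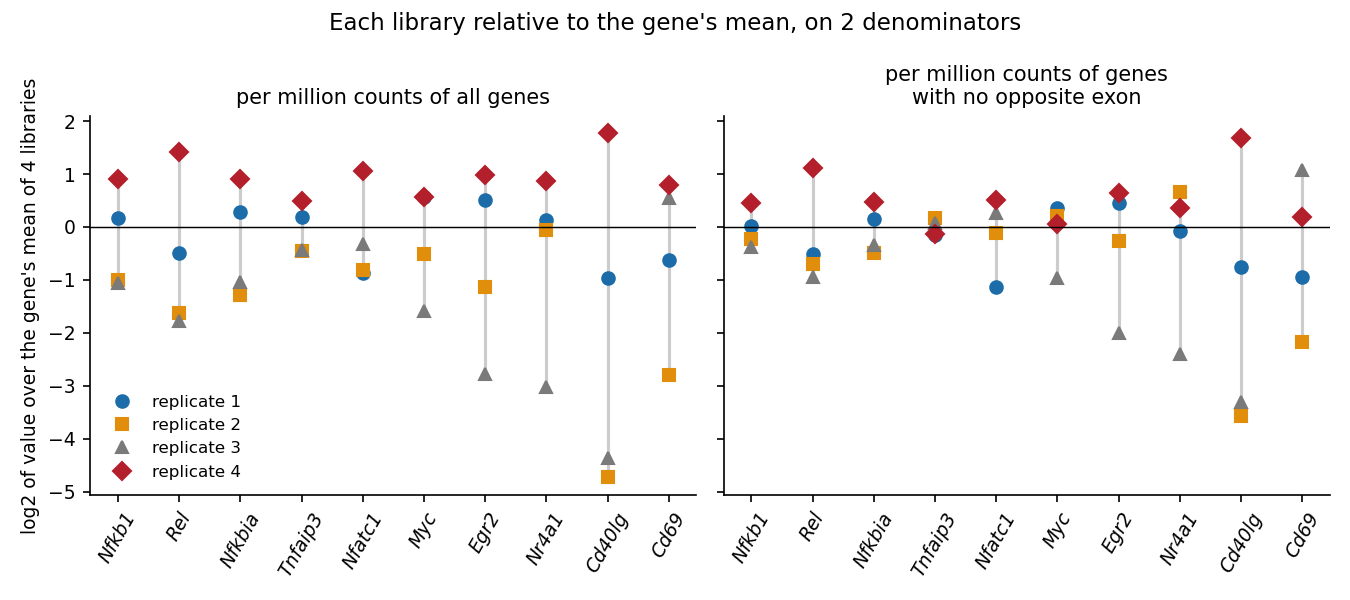
Each library's value over the gene's mean of the 4 Th2 libraries, as log2 on the vertical axis, for CPM of all genes on the left and of genes with no opposite exon on the right. The 4 symbols of Tnfaip3, Nfkb1 and Nfkbia draw together on the right (ratios of highest to lowest 1.24, 1.78 and 1.95), while Cd40lg stays wide at 38.3.

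Beyond Poisson sampling, 7 of the 8 members with enough counts differed between libraries (chi-square test with TMM-scaled library sizes, Benjamini-Hochberg adjusted over all genes, threshold 0.05). The same was true of 88.2% of the 7752 genes tested, so this share is near that of all genes. Tnfaip3 was the member that did not pass, with a chi-square per degree of freedom of 1.64 and an adjusted p of 0.189 (chi-square over n = 4 libraries, an approximation, not an exact test). Scaled by total counts instead, Tnfaip3 passed too, at 5.56 per degree of freedom and an adjusted p of 0.00118 by the same approximation. In that setting 8 of 8 members passed, beside 6775 of 7752 genes. Without replicate 4, 4 of 7 members tested passed, beside 5573 of 7334 genes: Rel and Nfatc1 no longer did, and Cd40lg had too few counts to be tested. With size factors taken from genes with no opposite exon, 6 of 8 passed, beside 84.1% of all genes and 76.9% of genes with no opposite exon. Nfkb1 and Nfkbia then did not pass (adjusted p = 0.121 and 0.242 by chi-square, an approximation), and Tnfaip3 did at 0.0360.

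Among the 3827 genes with no opposite exon, edgeR's biological coefficient of variation placed the members at both ends. Nfkb1 had 0.399, with 1.88% of those genes lower, Tnfaip3 0.426 (7.34% lower), Nfkbia 0.430 (8.31% lower) and Myc 0.451 (12.6% lower). Cd69 had 0.716 (81.6% lower) and Cd40lg 0.927, with 98.01% lower. Rel at 0.602 and Nfatc1 at 0.606 lay between these ends. In the fit over all 7752 genes the low end was not seen: 29.2% of genes were below Nfkb1, 32.1% below Tnfaip3, 39.4% below Nfkbia and 38.5% below Myc, while 97.2% were below Cd40lg. Nfkb1, Nfkbia, Tnfaip3 and Myc also had the highest mean counts of the panel (53.5 to 89.2), and the coefficient was lower at higher mean counts over all these genes. The part of the mean count in the members' places was not tested.

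**Figure D4:**
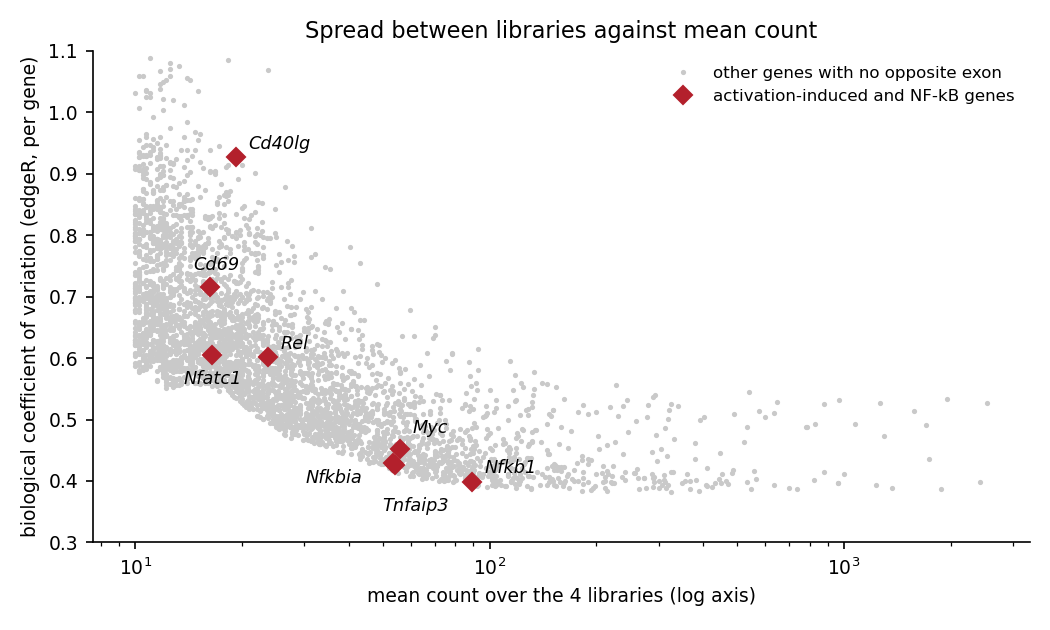
Biological coefficient of variation of each gene over the 4 Th2 libraries (edgeR, vertical axis) against its mean count (log axis), for the 3827 genes with no opposite exon. The 8 members tested are marked, with Nfkb1 at 0.399 along the lower edge and Cd40lg at 0.927 near the top.

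Setting each library against the other 3 called no member at an adjusted p of 0.05 (edgeR's quasi-likelihood test, Benjamini-Hochberg). Over all 7752 genes this test called 0% for replicate 1, 0.0129% for replicate 2, 0.0387% for replicate 3 and 0% for replicate 4. In replicate 4 against the others the 8 members tested had log2 fold changes above 0, as did 51.4% of all genes, with a median of 1.15 for the members and 0.05 for all genes. For replicates 1, 2 and 3, 4, 0 and 1 of the 8 members were above 0, beside 49%, 43.5% and 42.2% of all genes. In replicate 4 Cd40lg had the largest fold change of the 8, 3.83 (unadjusted p = 0.00292 and adjusted p = 0.565, edgeR), followed by Rel at 2.32 (adjusted p = 0.565, edgeR). Those 2 were the members with an unadjusted p below 0.05 in replicate 4, where 8.81% of all genes had one, and DESeq2 likewise gave 2 members unadjusted and none adjusted. In replicates 1, 2 and 3 there were 0, 1 and 1 such members by edgeR, beside 0.426%, 2.79% and 9.37% of all genes, and 0, 1 and 1 by DESeq2. Fitted among genes with no opposite exon alone, Cd40lg in replicate 4 was at 3.27 and Rel at 1.55 (adjusted p = 0.508 and 0.642, edgeR). In that fit 5 of the 8 members were above 0 in replicate 4, and Myc, Tnfaip3 and Cd69 were not. The median of the 8 was 0.40, beside -8.9e-05 for all 3827 genes of that fit. The comparison describes libraries, not conditions.

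Patterns across the 4 libraries were also compared with those of 117 genes of 11 related lists, by the root mean square difference of log2 CPM after centring on each gene's mean, over the 82 list genes that averaged 10 counts or more. Nfkb1 and Nfkbia were the members most like each other, at 0.15. Nfkb1 was closest to Stim1, a calcium sensor gene of the endoplasmic reticulum (0.12), and to Ncl, the nucleolin gene (0.14), and Nfkbia to Otud7b and Nop58 (0.13 each). Tnfaip3 was closest to Prkcq, the gene of protein kinase C theta, at 0.11, and to Dusp2, a phosphatase gene, at 0.20. Myc was closest to Nolc1, a nucleolar factor gene, at 0.13, and to Tnfrsf9, the 4-1BB gene, at 0.18. Rel was closest to Odc1 and Fkbp1a (0.24 and 0.28) and Nfatc1 to Ier3 and Rbck1 (0.06 and 0.29). Cd40lg and Cd69 had no near neighbour. The closest were Tfrc and Map3k7 for Cd40lg (0.98 and 1.096) and Nab1 and Tab2 for Cd69 (0.75 and 0.77). CPM takes out depth but not how much of a library fell on genes lacking an opposite exon. In replicates 1 to 4 that was 16.4%, 8.54%, 9.14% and 20.1%. Its part in the distances was not tested. With 4 libraries, such distances describe and do not link genes.

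Of the 117 list genes, 113 had a count in any library and 65 (55.6%) had 1 TPM or more in every library, beside 12.5% of all genes. An exon opposite another gene was present in 26 of the 117, and their median was 13.5 TPM, beside 3.34 TPM for the other 91. Of those 91, 46 had 1 TPM or more in every library, beside 13.8% of protein-coding genes with no opposite exon. For the 26, own-strand counts cannot be assigned to the gene alone. Poisson sampling was exceeded by 68 of the 82 that averaged 10 counts or more, beside 88.2% of all genes, and none was called in a library against the other 3 by edgeR.

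The remaining NF-kB subunits were Nfkb2 at 32.95 ± 8.48 TPM, which has 4 bp of exon opposite Psd, Rela at 3.53 ± 4.04 and Relb, the subunit of the alternative pathway, at 2.20 ± 2.12 TPM. Rela, the gene of p65, had 4, 4, 6 and 21 counts in replicates 1 to 4, highest in replicate 4 as Rel was, whereas Relb had 23, 0, 6 and 7, highest in replicate 1. In the IkB family, 4 of 6 genes had 1 TPM or more in every library, led by Nfkbil1 (27.8 ± 9.02 TPM) and Nfkbib (18.2 ± 6.23), both with an opposite exon, and Nfkbie (4.71 ± 4.50), with Nfkbiz lowest at 1.61 ± 1.101 TPM. Among the 19 genes of the IkB kinase and its activators 9 did so. Ikbkg, the regulatory subunit NEMO, had 34.1 ± 2.72 TPM with an exon opposite G6pdx, Map3k7, the kinase TAK1, had 5.56 ± 5.85 and Traf1 5.47 ± 2.52, with Traf5 lowest at 0.0936 ± 0.187 TPM. Of 9 genes of A20 partners and deubiquitinases 3 did so, with Tnip1 at 12.5 ± 9.51 TPM, Tnip2 at 7.49 ± 7.30 and Otulin at 6.04 ± 4.94, and Tnip3 lowest at 0.0824 ± 0.0750 TPM.

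Of the genes between the T cell receptor and NF-kB, Malt1, the paracaspase gene, had 267, 50, 24 and 261 counts and 30.1 ± 28.8 TPM. Carmil2 followed at 12.5 ± 3.24 TPM, with an exon opposite Acd, then Prkcq at 10.5 ± 3.26, and Bcl10 was the lowest of that list at 3.04 ± 3.41 TPM. Malt1 was thus higher in replicates 1 and 4, while Prkcq had 96, 77, 54 and 84 counts. In the calcineurin and NFAT list, 5 of 12 genes had 1 TPM or more in every library. Fkbp1a, the FK506-binding protein, had 17.8 ± 18.3 TPM, Ppp3r1, the regulatory subunit of calcineurin, 8.97 ± 8.89 and Nfatc3 3.78 ± 0.720 with an exon opposite Esrp2, while Ppp3ca, a catalytic subunit, was lowest at 0.499 ± 0.250 TPM.

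Relatives of the early response members came next. In the EGR and NR4A list 1 of 7 genes had 1 TPM or more in every library. That gene, Nab2, a corepressor of EGR factors, had 61.4 ± 10.5 TPM and exons opposite Stat6, Nemp1 and the noncoding gene Gm16229. Nab1 had 3.43 ± 3.25 TPM and Egr3 2.41 ± 3.29 TPM, Egr3 from 0, 5, 0 and 8 counts, and Egr4 had 0 counts in all 4 libraries. The other immediate-early genes were led by Junb (145 ± 53.1 TPM) and Jund (36.3 ± 13.7), which have exons opposite Prdx2 and Gm11175, and by Ier2 (23.7 ± 12.8 TPM). There 15 of 20 reached that level. Fosb was the lowest at 0.0303 ± 0.0607 TPM, a single count in replicate 2.

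In the MYC network 4 of 12 genes had 1 TPM or more in every library, with Mxd3 at 1039 ± 28.7 TPM, Mlx at 14.5 ± 1.42 and Mycbp at 9.74 ± 5.67, each with an opposite exon, and Mycn at 0 counts. Max, the obligate partner of MYC, was named after its values were seen and had 23, 8, 2 and 28 counts. All 13 growth genes known as MYC targets had 1 TPM or more in every library. Cdk4 had 655 ± 51.9 TPM with an exon opposite Tspan31, Npm1 456 ± 307 and Ldha 130 ± 91.9 TPM, and Cad was lowest at 4.84 ± 2.64. Npm1 and Ldha have processed copies elsewhere in the genome, between which the counting could split reads. Among the surface partners and other activation-induced genes, Irf4, a transcription factor, had 157 ± 27.0 TPM, Il2ra, the IL-2 receptor alpha chain, 144 ± 105 and Tnfrsf18, the GITR gene with an exon opposite Gm16008, 121 ± 17.0 TPM, and 6 of the 11 had 1 TPM or more in every library. Cd40, the receptor for CD40 ligand on other cells, and Klf2, a factor of resting T cells that acts on S1pr1, were both at 0 counts in all 4 libraries. Own-strand counts of 0 do not show that their RNA was absent.

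**Figure D5:**
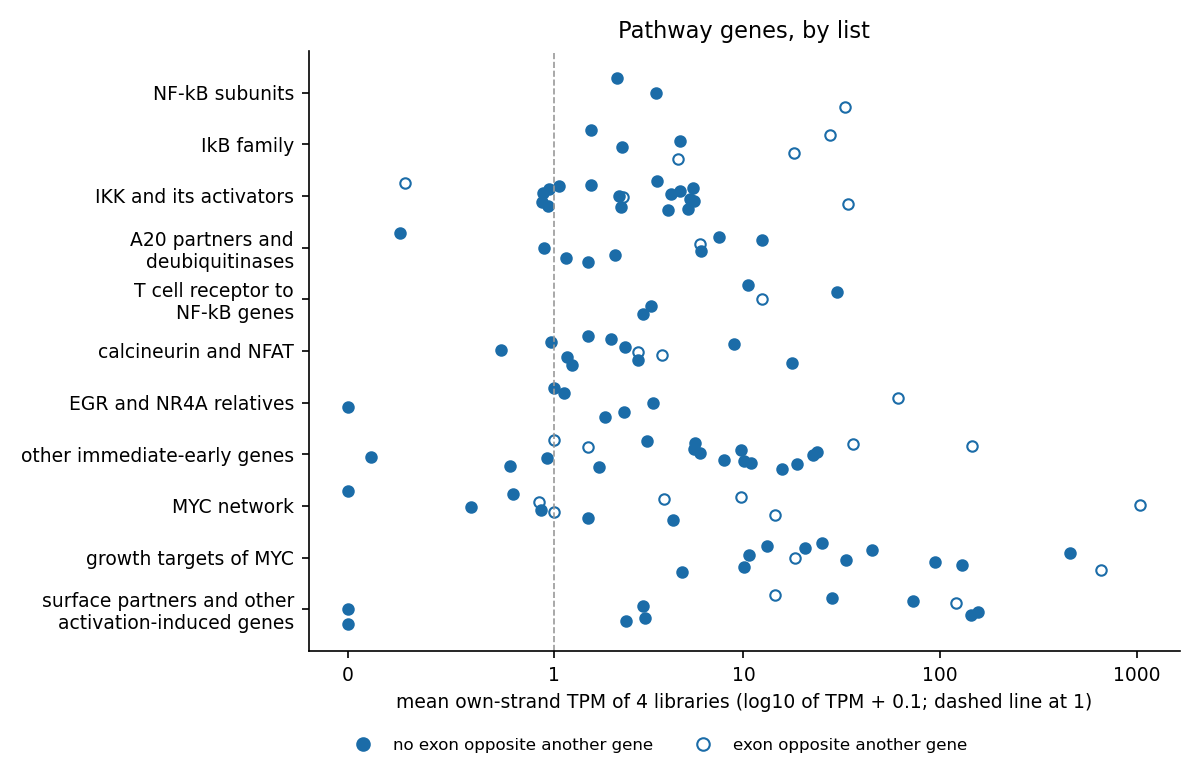
Mean own-strand TPM of the 4 Th2 libraries (log10 of TPM + 0.1 on the horizontal axis) for the 117 genes of 11 lists, 1 list to a row, with a dashed line at 1 TPM. Open circles are the 26 genes with an exon opposite another gene, among them Mxd3 at 1039 TPM, and filled circles the 91 without one.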

How the data were processed

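The deposited values were raw fragment counts per gene in 4 libraries, not normalized. Per the file headers, the authors made the counts with featureCounts v1.4.6-p4 from STAR alignments, over exons, both ends mapped, strand option 1, annotation GENCODE M13, assembly mm10. For STAR a version was not given in these sources, and whether the kit reads this strand was not stated. Mitochondrial mRNA counts per kb fell mostly on mt-Nd6, on the strand opposite the other 12 genes. The counted strand may thus be mostly the one opposite the mRNA, and no recount on the other strand was made. Symbols came from GENCODE M21 by identifier (50376 of 50600 matched, 50367 of them at the same place).

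TPM and CPM were computed from counts and exon lengths. Opposite exons (at least 1 bp) were found with bedtools 2.31.1, and 42411 genes had none. Tests used edgeR 4.0.16 (TMM), DESeq2 1.42.0 as the alternative, R 4.3.3 and Python 3.11.15, over genes averaging 10 counts or more, after a trial on simulated counts. Shares have Wilson and counts exact Poisson intervals at 95%. Members, pairs and lists were chosen with earlier results of these data known. Named were all members, the 3 highest and the lowest of each list by mean TPM, and the 2 list genes closest to each member tested; others are marked as chosen later. Alternatives were another pseudocount (0.1), FPKM, other denominators and size factors, no filter, a TPM of 5, DESeq2, genes with no opposite exon alone and leaving out each library. Sign-flip, edgeR and DESeq2 p-values rest on the spread between these libraries, for which the labels list the same donor entry. A library set alone against the others adds no spread of its own. Chi-square p-values set the counts against counting error alone.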

Additional observations from a re-analysis of the deposited data

Results flagged for a closer look

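Of 27 sets of 4 libraries examined (TPM and free-gene CPM of each member, and the 7 pair differences), 4 had a library whose gap to the nearest other exceeded Dixon's 95% critical value for 4, as a part of the whole range. For values with a normal distribution, chance alone gives about 1 in 20 such sets, a rate not checked for low counts such as these. The sets also share libraries, so they are not independent. In each of the 4 the library that stands apart is replicate 4, on the high side.

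Cd40lg stood apart in TPM, where the gap was 0.863 of the range (61.2 TPM in replicate 4, next 8.89 in replicate 1), and in free-gene CPM, where it was 0.838 (242, next 44.5). Rel stood apart in free-gene CPM at 0.888 (222 in replicate 4, next 71.8), and its TPM ratio of 0.826 fell just short. Nfatc1 stood apart in TPM at 0.863 (4.98 in replicate 4, next 1.74) but not in free-gene CPM, where the ratio was 0.480.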

How the results depend on the processing

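No paired analysis was possible because all 4 libraries belong to 1 group. The planned comparison with opposite-strand partners gave no value, since no member has one. Directions of the 7 pair differences held with a pseudocount of 0.1 and with FPKM, while leaving out a library moved Tnfaip3 minus Nfkb1 over -0.011 to 0.29, reversed without replicate 3, Cd69 minus Cd40lg over -1.85 to -0.25 and Egr2 minus Nr4a1 over -0.61 to -0.29. Among neighbours in the order of levels, leaving out a library moved Cd40lg minus Nfkb1 over -0.90 to 0.26, Rel minus Nr4a1 over -0.35 to 0.15, Nr4a1 minus Cd69 over -0.17 to 0.93, Cd69 minus Nfatc1 over -0.17 to 0.32 and Nfatc1 minus Egr2 over -0.15 to 0.49, and a pseudocount of 0.1 turned Cd69 minus Nfatc1 to -0.047. The number of members beyond Poisson sampling ranged from 4 to 7 when a library was left out, with 4 of 7 when replicate 4 was, beside 5573 of 7334 genes, and 6589 of 8193 genes without replicate 3. It was 8 of 8 with total counts, beside 6775 of 7752 genes. The number of genes was 11679 of 16612 with no filter, against 6838. Genes called in a library against the others were 3 with no filter, against 1, in replicate 2, 3 with no filter, against 0, in replicate 4, and 0 with DESeq2 and with genes with no opposite exon alone, against 3, in replicate 3. Pathway genes detected in every library were 30 at 5 TPM or more, against 65 at 1 TPM, and ranged from 65 to 73 when a library was left out. With TPM scaled to genes with no opposite exon, 90 of the 117 reached 1 in every library. The cause of these shifts was not tested, beyond more genes being tested without the filter. Rescaling TPM to genes with no opposite exon raised the mean of each of the 10 members by more than its SD. Depth limits Egr2, Nr4a1, Cd69 and Cd40lg most, with 1 to 4 counts in at least 1 library.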

Other observations

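The lists also differed in how their genes with no opposite exon were spread over the libraries, given as values only. Summed in free-gene CPM, the A20 partners and deubiquitinases had 729, 485, 280.1 and 748 in replicates 1 to 4. The growth targets of MYC had 17485, 11548, 10929.8 and 19259.8. The other immediate-early genes had 1553, 1721, 1968 and 1843, lowest in replicate 1 and highest in replicate 3.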
